A study of Sus scrofa with 4 samples.

Results

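Histone H4 lysine 12 lactylation (H4K12la) was examined at the genes of glutathione metabolism and redox defence in the liver of late-gestation sows. The genes were taken by symbol from the RefSeq annotation of the pig genome Sscrofa11.1: glutathione synthesis enzymes, glutathione transferases and peroxidases, peroxiredoxins, thioredoxins, glutaredoxins, superoxide dismutases, catalase, methionine sulfoxide reductases, quinone reductases, heme oxygenases and their NRF2 regulators. The rule found 53 coding genes, of which 52 lie on a placed chromosome, among 16303 coding genes with a symbol. HMOX1, the inducible heme oxygenase, is annotated on an unplaced sequence and was not analysed here. One liver group came from sows with high bile acids and the other from sows with low (normal) bile acids, all labelled female and hepatocytes, with no further treatment, breed or age in the labels. Each group had 1 library immunoprecipitated with an antibody against H4K12la and 1 input library, 4 samples in all, and whether a library pools several sows is not stated. The data are the authors' list of called peaks for each immunoprecipitated library, named here the high list (28283 peaks) and the low list (5735 peaks).

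H4K12la is an acyl mark derived from lactate that is placed on the tail of histone H4, and histone lactylation has been linked to active genes. Hepatocytes hold much glutathione, a tripeptide that is made by glutamate-cysteine ligase and glutathione synthetase, spent by peroxidases and transferases, and restored by glutathione reductase. Thioredoxins and peroxiredoxins form a parallel system. Many of these genes are targets of NRF2, a transcription factor that KEAP1 holds back until oxidants or electrophiles modify KEAP1, and bile acids retained in cholestasis are a known source of oxidative stress in liver.

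With 1 library per group there is no replicate, and no test between groups was made. Where 1 list holds a peak and the other does not, the calls differ, which does not show that occupancy did. In bulk liver, a change in the cells present and a change of the mark per cell cannot be told apart. The fold is the authors' enrichment at the peak's summit over the local background, a ratio, and q is the adjusted p-value of their caller against the input. The fold and p of each peak also give the number of fragments at its summit and the number expected there. In this recovery the fold is the scaled fragment number plus 1, divided by the expected number plus 1. It is therefore lower than fragments divided by the number expected. Total depth is not in the files. The lowest expected number of any peak, the genome-wide background, was 1.98 fragments in the high library and 2.20 in the low library before its pileup was scaled by 0.881, so the low library was the deeper one. The annotation gives no strand, so the start of a gene could not be told from its end: the ends are named lower and upper by coordinate, and a gene-end peak is one with at least 1 base within 1 kb of either.

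In the high list, 12 of the 52 genes (23.1%) carried a peak at a gene end, against 18.4% of all named coding genes. In the low list, 3 did (5.77%), against 3.59%. A peak inside the gene was called for 24 genes in the high list (46.2%; all coding genes 45.4%) and for 5 in the low list (9.62%; all coding genes 15.1%). Within 10 kb of the gene, 30 genes had a high-list peak (57.7%; all coding genes 62.8%) and 11 a low-list peak (21.2%; all coding genes 22.0%). The lists differ in length. With the high list cut to its 5735 peaks of smallest p, 8 genes had a high-list peak within 10 kb (all coding genes 24.1%). The order of the counts within 10 kb thus turned. At gene ends (4 against 3) and inside genes (7 against 5) the cut high list still held more genes than the low list. The shares of redox genes lie near those of coding genes at large, and the low-list counts at gene ends and inside genes rest on 5 genes or fewer, so none of them sets the redox genes apart.

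**Figure D1:**
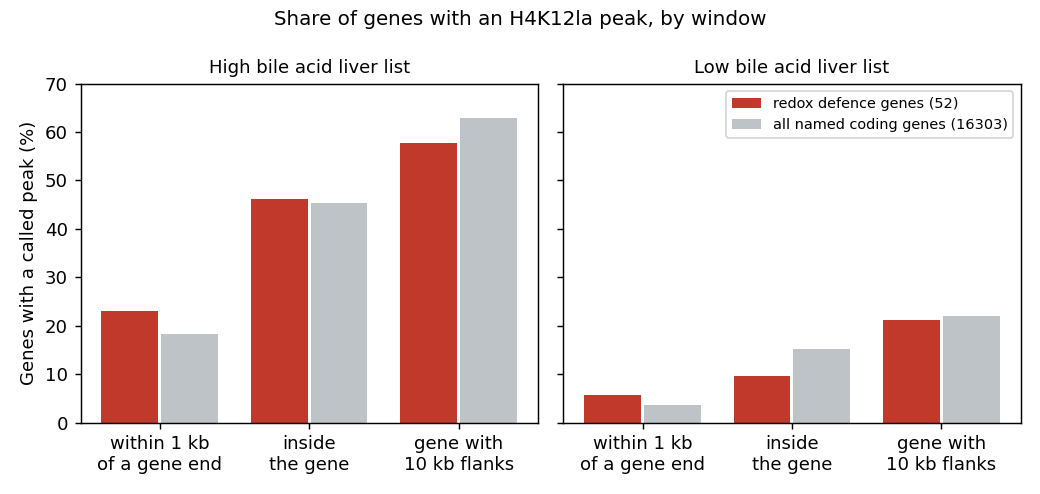
Share of genes (%) with a called H4K12la peak within 1 kb of a gene end, inside the gene, or in the gene with 10 kb flanks, for the redox defence genes (red) and all named coding genes (grey), in the high list (left) and the low list (right). The bars are counts of genes in 1 library each and carry no replicate error; at gene ends the shares are 23.1% against 18.4% in the high list and 5.77% against 3.59% in the low list.

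The redox genes are short, with a median length of 12.2 kb against 25.6 kb for all named coding genes, and among all coding genes a peak inside the gene is more often called in longer ones. Of the 16 redox genes of up to 10 kb, 6 had a high-list peak at a gene end, where 20.2% of all coding genes of that length did. Of the 24 between 10 and 30 kb, 4 did (all coding genes 18.8%), and of the 12 above 30 kb, 2 did (17.3%). Inside the gene, the counts in the high list were 5 of 16, 10 of 24 and 9 of 12 for the same length classes, against 21.4%, 38.8% and 62.9% of all coding genes. Counted by length of sequence, the redox genes with their 10 kb flanks held 22.0 high-list summits and 3.74 low-list summits per Mb, where all named coding genes with their flanks held 15.1 and 3.01. Without HMOX2, which alone had 8 high-list peaks, the redox genes held 19.5 high-list summits per Mb.

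The peaks themselves were of ordinary strength. The 59 high-list peaks within 10 kb of a redox gene had a median fold of 3.01, between 1.91 and 3.69, and the whole high list had a median of 2.90. The 11 low-list peaks had a median fold of 3.15, between 2.74 and 4.53, and the whole low list one of 2.98. None of these peaks of either list reached q under 0.05, a level passed by 608 peaks of the high list and 13 of the low list. By place, the high-list peaks divided into 14 at gene ends, 27 deeper inside genes and 18 in flanks, and the low-list peaks into 3, 2 and 6.

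**Figure D2:**
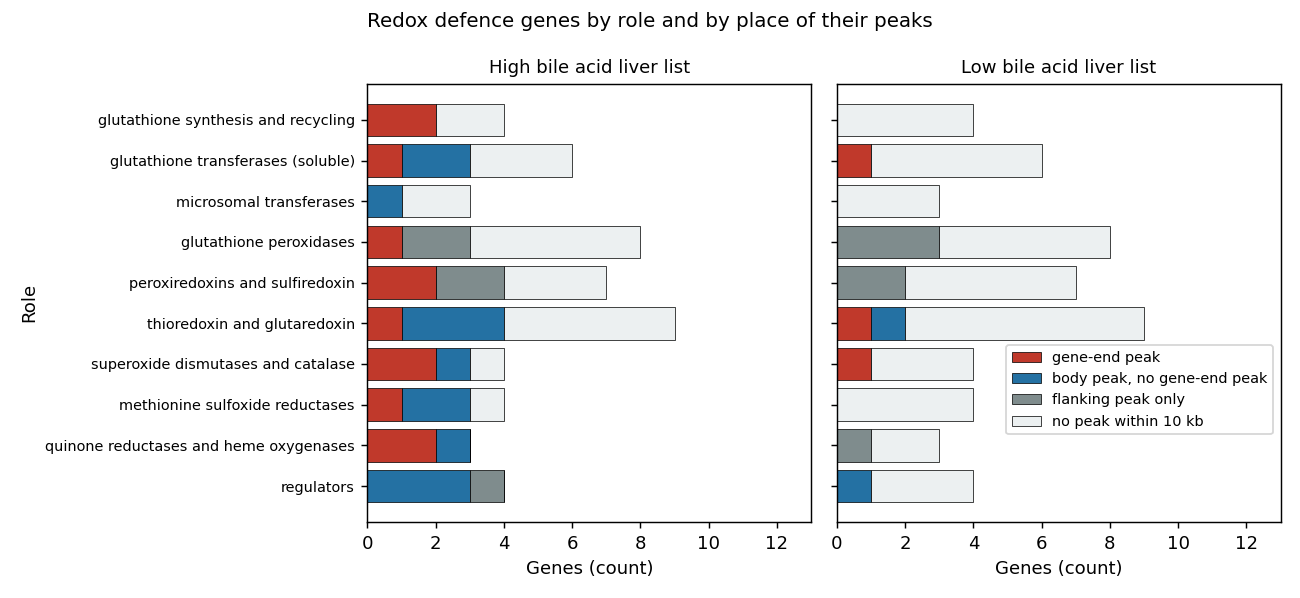
Number of redox defence genes in each role, coloured by the closest class of peak they had, in the high list (left) and the low list (right): a gene-end peak (red), a peak inside the gene but none at an end (blue), a peak only in the 10 kb flanks (dark grey) or none within 10 kb (pale). All 4 regulators have a high-list peak but none at a gene end, and glutathione synthesis, microsomal transferases and methionine sulfoxide reductases have no low-list peak.

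Glutathione synthesis and recycling is the first role described. GCLM, the modifier subunit of glutamate-cysteine ligase, which performs the rate-limiting step, carried the gene-end peak of smallest q in the module. It spans chr4:123371380-123371891, inside the gene, with its summit 431 bp from the lower end, a fold of 3.64 (q 0.0735) and 13 fragments over 2.85 expected, in the high list; the low list had no peak within 10 kb, the closest lying 43914 bp away. By p it ranked 1238 among the 28283 high-list peaks. GSR, glutathione reductase, had a high-list peak at chr15:54382723-54383250, 321 bp inside its lower end, with a fold of 3.03 (q 0.274; 9 fragments), and a further one of fold 2.78 inside the gene, and no low-list peak within 10 kb. The catalytic ligase subunit GCLC and the synthetase GSS had no peak called within 10 kb in the high or the low list. Within 10 kb, 2 of these 4 genes thus had a high-list peak and 0 a low-list one, where 62.8% and 22.0% of all coding genes did.

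Glutathione transferases couple glutathione to electrophiles such as drugs and lipid peroxidation products. Of 6 soluble members, each list held 1 with a gene-end peak, GSTK1 (high) and GSTO1 (low). GSTO1, an omega-class enzyme with thioltransferase and dehydroascorbate reductase activity, had no high-list peak within 10 kb. Its low-list peak, chr14:115206227-115206886, spans the lower gene end, with a fold of 4.53 (q 0.142) and 14 fragments over 2.20 expected before scaling, the highest fold among the redox genes in either list. It ranked 18 by p among the 5735 low-list peaks, and the nearest high-list peak lay 17867 bp away. GSTK1, the kappa-class enzyme of mitochondria and peroxisomes, had a high-list peak at chr18:6993286-6993580, 857 bp inside its lower end, with a fold of 3.36 (q 0.232; 9 fragments), and a flanking one of fold 2.58; the low list had none.

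Peaks deeper inside a transferase gene were called in the high list at GSTZ1, the zeta-class isomerase of tyrosine breakdown (fold 3.55, q 0.101, 12 fragments), and at GSTA1, an alpha-class enzyme abundant in hepatocytes (fold 2.78). GSTA4 and GSTM3 were without a peak within 10 kb in both lists. Among the membrane-bound microsomal transferases, MGST2 had a high-list peak of fold 3.12 inside the gene. MGST1 and MGST3 had none in either list.

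Glutathione peroxidases reduce hydrogen peroxide and lipid hydroperoxides with glutathione. GPX3, the secreted plasma peroxidase, had 3 high-list peaks in a row at or before its lower end. Those at chr16:71979424-71980037 and chr16:71980283-71980577 lay within 1 kb of that end and had the same values, a fold of 3.02 (q 0.330) on 8 fragments; the inner peak crosses the end, with its summit 88 bp outside, and the outermost, with its summit 1762 bp outside the gene, had a fold of 2.86. Both gene-end peaks also lie within 1 kb of an end of the neighbouring gene TNIP1. The low list had 1 peak by GPX3, of fold 3.63 (q 1; 11 fragments), with its summit 10086 bp outside the gene and 7863 bp from the nearest high-list peak.

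The other peroxidases had flanking peaks at most. GPX4, which protects membranes by reducing phospholipid hydroperoxides, had a high-list peak of fold 2.64 with its summit 4495 bp beyond the upper end and a low-list peak of fold 2.89 with its summit 2910 bp before the lower end. GPX1, the abundant cytosolic enzyme, had high-list flanking peaks of fold 3.01 and 1.91 and no low-list peak. GPX2, the gastrointestinal enzyme, had no high-list peak within 10 kb and a low-list flanking peak of fold 2.74. GPX5, GPX6, GPX7 and GPX8 had none in either list.

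Peroxiredoxins reduce peroxides with electrons from thioredoxin. PRDX5, a mitochondrial and peroxisomal member, had 5 high-list peaks within 10 kb and no low-list peak. Of these, chr2:7801457-7801932 lies inside the gene at its upper end, with a fold of 3.64 (q 0.109; 11 fragments), and chr2:7802854-7803366 reaches to within 1 kb of that end from outside, with a fold of 3.25 (q 0.232; 9 fragments). Both also lie at an end of the neighbour TRMT112, and the outer one at an end of ESRRA. PRDX1, the main cytosolic member, had a high-list peak at chr6:165847908-165848325, 735 bp inside its lower end, with a fold of 3.12 (q 0.232; 11 fragments). Its low-list peak, chr6:165863081-165863508, lies at the other side, 3411 bp beyond the upper end and overlapping MMACHC, with a fold of 3.95 (q 0.830; 13 fragments).

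PRDX2, known from red blood cells, had a flanking peak in each list, of fold 3.01 (high) and 3.42 (low), both before its lower end, overlapping RNASEH2A and 4345 bp apart. PRDX3, the mitochondrial member, had a high-list flanking peak of fold 3.02 and no low-list peak. PRDX4, PRDX6 and sulfiredoxin SRXN1, which repairs overoxidised peroxiredoxins, had none in either list. PRDX4 is the member on chromosome X, and its nearest high-list peak lay 1682739 bp away.

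Thioredoxins and glutaredoxins reduce protein disulfides. TXNRD2, the mitochondrial thioredoxin reductase, was the redox gene at which peaks of both lists overlapped. How many peaks overlap across the whole lists was not computed, so this overlap is described only. The high-list peak, chr14:51384841-51385598, had a fold of 2.71 (q 0.407) on 8 fragments, and the low-list peak, chr14:51385095-51385433, lay wholly within it, with a fold of 3.15 (q 1) on 11 fragments. Their summits stood 124 and 262 bp outside the upper end of TXNRD2. The high list held another 2 peaks inside TXNRD2, of fold 2.89 and 2.67. Inside TXNRD3, a reductase with a glutaredoxin domain, the low list held a peak of fold 2.94 and the high list none within 10 kb, and TXNRD1, the cytosolic reductase, had none in either list. High-list peaks also lay inside TXN (fold 2.88), which encodes cytosolic thioredoxin, the mitochondrial TXN2 (fold 2.56) and GLRX3 (fold 3.12), with no low-list peak at these. GLRX, GLRX2 and GLRX5 had none in either list.

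Superoxide dismutases turn superoxide into hydrogen peroxide, which catalase destroys. SOD1, the cytosolic copper-zinc enzyme, had a gene-end peak in both lists but at opposite ends. The high-list peak, chr13:195326810-195327148, lies 336 bp inside the lower end, with a fold of 3.12 (q 0.232; 11 fragments), and the low-list peak, chr13:195334526-195334824, has its summit 537 bp inside the upper end, with a fold of 3.46 (q 1; 11 fragments), and also lies within 1 kb of an end of the neighbouring gene SCAF4. The gap between them is 7378 bp. SOD1 and TXNRD2 were the 2 redox genes called at a gene end in both lists (3.85%), against 0.883% of all named coding genes; 2 genes are too few to be read against that share, and the low-list peaks at both also lie at an end of a neighbouring gene.

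SOD2, the mitochondrial manganese enzyme, had the high-list gene-end peak of highest fold among the redox genes, 3.69 (q 0.139; 10 fragments), at chr1:7688473-7688767, 923 bp inside its upper end, and a flanking one of fold 2.60. The low list had none within 10 kb. CAT, the peroxisomal catalase, had a high-list peak of fold 2.68 inside the gene, on 7 fragments, and no low-list peak. The extracellular SOD3 had none in either list.

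Methionine sulfoxide reductases repair oxidised methionine. MSRB1, a selenoprotein, had 3 high-list peaks beyond its upper end, of which chr3:40022408-40022736, with its summit 901 bp outside, had a fold of 3.38 (q 0.139; 12 fragments) and the others 2.73 and 2.60. MSRA and MSRB3, both long genes, had 3 and 2 high-list peaks inside the gene, with folds of 2.34 to 3.12. The summit closest to a gene end, in MSRA, lay 10178 bp from the lower end. No low-list peak lay within 10 kb of these genes, and MSRB2 had none in either list.

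The quinone reductase NQO1, a widely used NRF2 target, had a high-list peak across its lower end, chr6:17292812-17293271, with a fold of 1.91 (q 0.711). It rested on 10 fragments over 4.75 expected, and its p of 0.00967 ranked 28165 among the 28283 high-list peaks. A peak inside NQO1 was stronger, with a fold of 3.39 (q 0.167). NQO2 had 2 high-list peaks inside the gene, of fold 3.09 and 2.09. Neither gene had a low-list peak within 10 kb.

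HMOX2, the constitutive heme oxygenase, had the most peaks of any member, 8 high-list and 1 low-list. The strongest high-list peaks had folds of 3.66 (q 0.0779; 12 fragments) in the flank before the lower end and 3.52 (q 0.104; 12 fragments) inside the gene. Its gene-end peak, chr3:37868722-37869016, was weak, with a fold of 2.43 on 7 fragments, 795 bp beyond the upper end. The low-list peak, of fold 2.87 (q 1), lay 2305 bp from the nearest high-list peak. The gene overlaps CDIP1 in the annotation, and 5 of these 9 peaks, 4 high-list and 1 low-list, overlap CDIP1 as well. The high-list peaks in the flank beyond the upper end, of fold 3.05 and 2.91, overlap another neighbour, NMRAL1.

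All 4 regulators had a high-list peak within 10 kb (all coding genes 62.8%), and none had one at a gene end in either list (all coding genes 18.4% high-list, 3.59% low-list); 4 genes are too few to be read against these shares. NFE2L2, which encodes NRF2, spans 178701 bp and had 3 high-list peaks inside, of fold 3.39 (q 0.167), 3.06 and 2.68, and 1 low-list peak inside, of fold 3.13 (q 1; 12 fragments), 11061 bp from the nearest high-list one. High-list peaks also lay inside NFE2L1 (fold 2.60), a related factor that drives proteasome genes, and NFE2L3 (fold 3.15). KEAP1 had a flanking high-list peak of fold 2.86, overlapping S1PR5, with its summit 6751 bp beyond the gene. The low list had no peak within 10 kb of these last 3 genes.

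**Figure D3:**
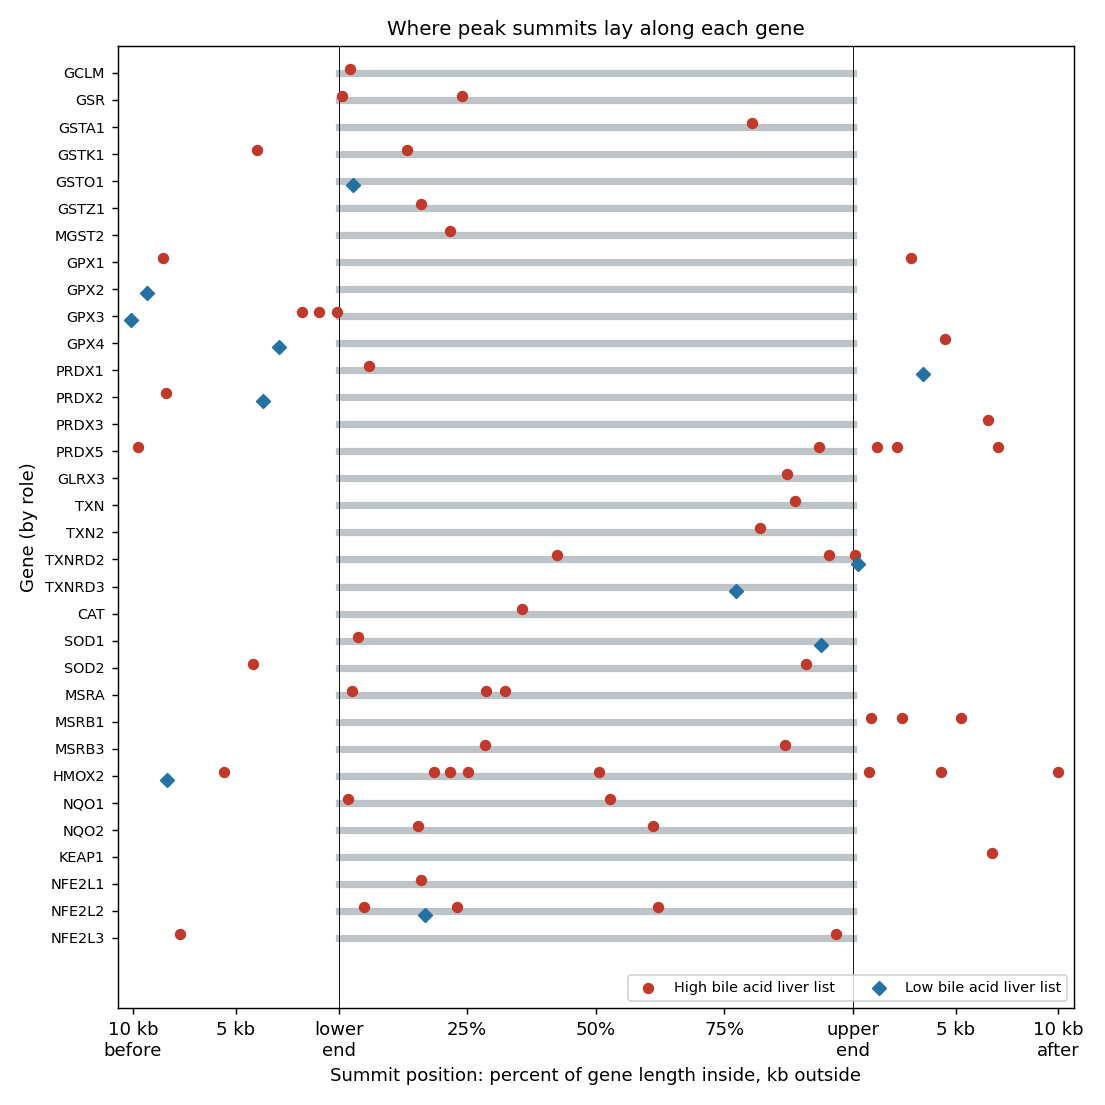
Position of each peak summit along the redox defence genes with a peak within 10 kb, grouped by role, for the high list (red circles) and the low list (blue diamonds). Inside the gene (grey bar) the axis is percent of gene length from the lower to the upper coordinate, and outside it is kb; the lists coincide at the upper end of TXNRD2 and take opposite ends of SOD1.

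**Figure D4:**
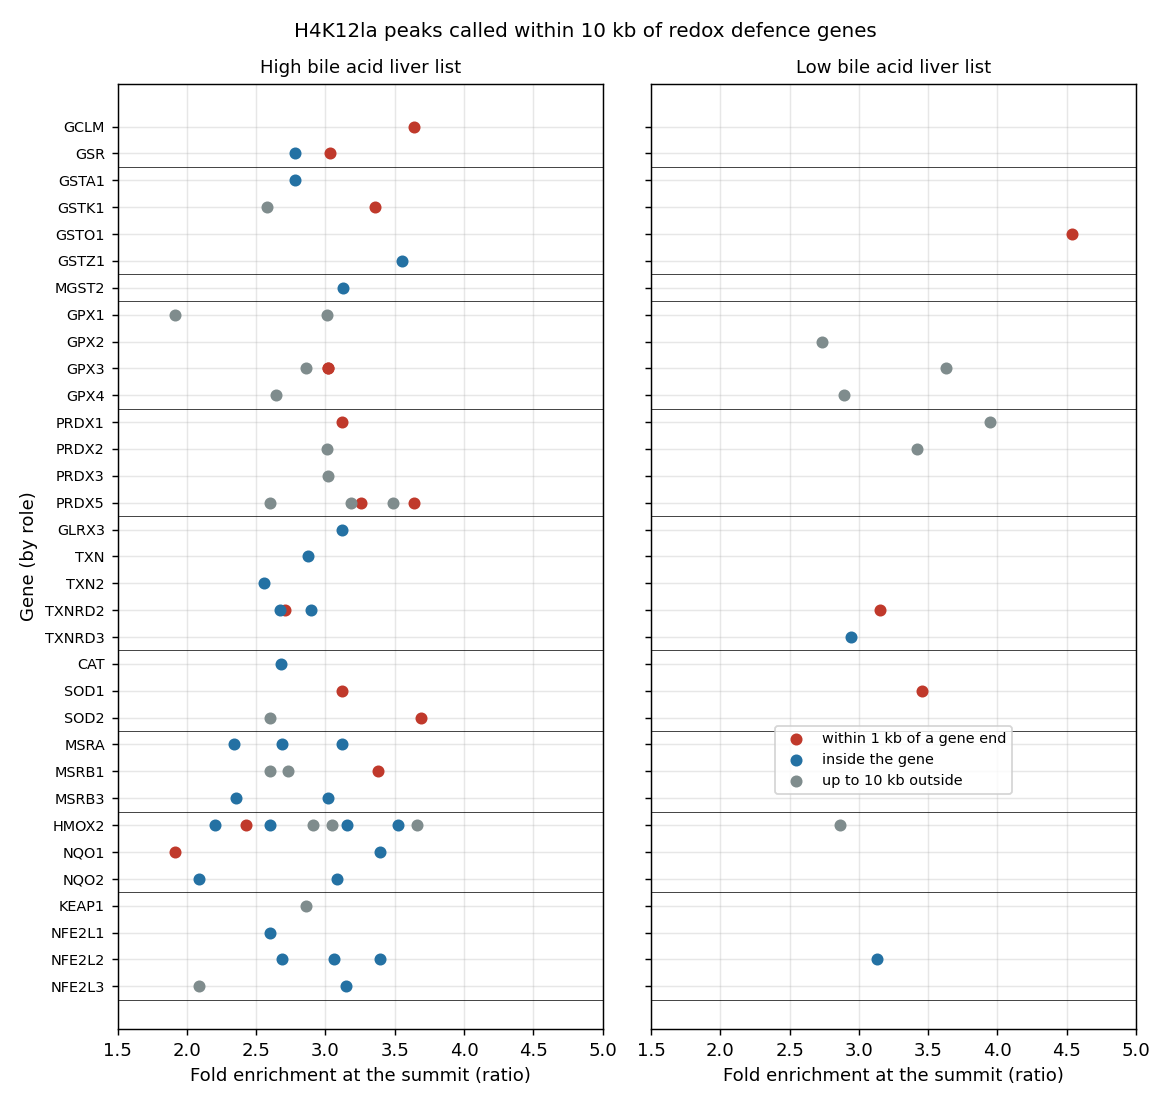
Fold enrichment at the summit (ratio) of each peak within 10 kb of a redox defence gene, in the high list (left) and the low list (right), by gene and role; red marks gene-end peaks, blue peaks inside the gene and grey flanking peaks. High-list folds run from 1.91 to 3.69, and GSTO1 in the low list stands at 4.53.

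Counting error was set beside the calls. The 14 gene-end peaks of the high list rested on 7 to 13 fragments. At the largest p in the lists, a call in the low library over an equal expected number of unscaled fragments takes 6 to 12 fragments. For none of the 14 did the 95% Poisson interval lie at or above that number: at GCLM it ran from 6.92 to 22.2 with 8 needed, and at SOD2 from 4.80 to 18.4 with 6 needed. The same held for all 59 high-list peaks near redox genes, so for those without a low-list call no difference was detectable at this depth. Of the 11 low-list peaks, 1 lay above the limit of the high library, the gene-end peak of GSTO1, with 14 fragments (95% interval 7.65 to 23.5) and 6 needed. The flanking peak of PRDX1, with 13 fragments (6.92 to 22.2), fell just short of the 7 needed. The fragments and the expected number of the library without a call at those places are not in the lists. Each interval was taken at a peak chosen because it was called, which favours high counts. None was adjusted for the number of peaks examined. The GSTO1 interval therefore does not show a difference between the livers.

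**Figure D5:**
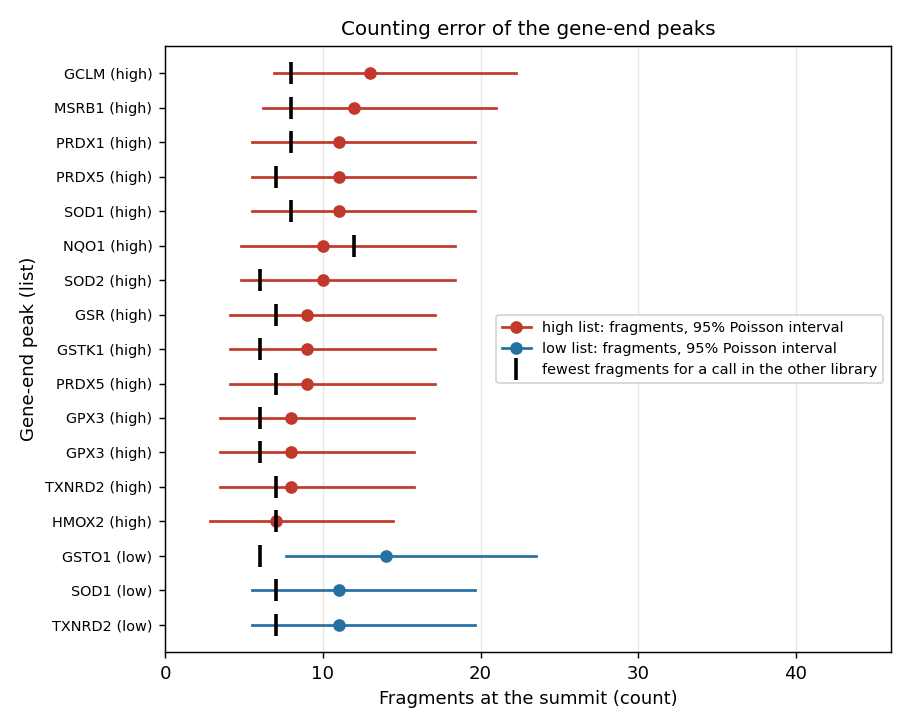
Fragments at the summit (count) of each gene-end peak of a redox defence gene, with exact 95% Poisson intervals, for the 14 high-list peaks (red, above) and the 3 low-list peaks (blue, below). Black ticks give the fewest fragments for a call in the other library over an equal expected number of unscaled fragments; the interval of GSTO1 alone lies wholly above its tick.

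No peak within 10 kb was called in either list for 19 of the 52 genes (36.5%). The same share over all coding genes was not computed. Of all coding genes, 62.8% had a high-list peak and 22.0% a low-list peak within 10 kb. The 19 genes are thus listed only and are not read as particular to redox defence. Their nearest high-list peaks lay between 11373 bp (MGST1) and, for PRDX4, 1682739 bp away, with a median of 24786 bp. TXNRD1 was close to the window's edge at 11401 bp.

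Other genes of the pathway were counted by list. Of 10 partners and degradation factors of NRF2, 3 had a high-list peak at a gene end (all coding genes 18.4%), and none had a low-list one (3.59%). BTRC, a subunit of a ubiquitin ligase that can target NRF2, had the strongest, chr14:112399758-112400166, with a fold of 4.64 (q 0.0106; 13 fragments). SQSTM1, an autophagy receptor that binds KEAP1, followed with 3.11, and MAFG, a small MAF partner of NRF2, with 2.34. Of 14 genes that supply NADPH, 3 had a high-list peak at a gene end, IDH2 (fold 3.16), NNT (2.85) and TALDO1 (2.75), and again none had a low-list one, against the same 18.4% and 3.59% of all coding genes. Inside the gene, 10 of the 14 had a high-list peak (all coding genes 45.4%) and 2 a low-list peak (15.1%). Lists of this size are too short to be set apart from those shares. TKT, a transketolase of the pentose phosphate pathway, had the low-list peak of highest fold among these genes, 4.83 (q 0.0229, 15 fragments). That peak spans chr13:35369924-35370464 inside the gene. The high list also held peaks inside TKT, of fold 2.42 and 2.52.

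Of 24 genes of cysteine supply and glutathione turnover, 3 had a high-list peak at a gene end (all coding genes 18.4%) and 1 a low-list peak (3.59%), counts near the background. The high-list genes were AHCY (fold 3.31), which hydrolyses S-adenosylhomocysteine, GNMT (3.28), a glycine methyltransferase, and CDO1 (2.89), cysteine dioxygenase. The low-list gene-end peak was at HAGH, a glyoxalase that releases glutathione, with a fold of 3.63 (q 1, 12 fragments). HAGH also had high-list peaks inside the gene, of fold 2.89 and 2.84. The cystine carrier SLC7A11 had no peak inside the gene or at an end in either list.

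The labelled cell type was checked against 16 hepatocyte markers. Of these, 1 had a high-list peak at a gene end, TTR, and none a low-list one, where 18.4% and 3.59% of all coding genes did. Inside the gene, 6 had a high-list peak (all coding genes 45.4%) and 2 a low-list peak (15.1%). Peak lists do not measure expression, so the label could not be tested in this way.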

How the data were processed

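The submitters' processing notes name MACS2 2.1.0, Bowtie 1.1.2, Trimmomatic 0.33 and bcl2fastq 2.17; the caller's settings are not given in the sources used here. The notes name hg38 and Sscrofa11.1. Peaks lie on 18 autosomes, X and Y, and on 19 of these 20 chromosomes the last peak lies within 1 Mb of the last gene annotated in Sscrofa11.1, so pig coordinates were used, counted from 1. The authors deposited for each peak its fold (a ratio) and its p-value and q-value, both as −log10, which were used as given; the deposited score, a display value made from p, was not used. No p-value exceeded 0.00989. The authors' lists are per library, not pooled.

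The members and lists were chosen with earlier results of these data known. Peaks were placed by interval (at least 1 base) against the RefSeq table; coding genes with a LOC name were left out of the background. Every member with a gene-end peak is named with its values, as are members with peaks in both lists; the others are named with their folds or without a peak. Fragment numbers were solved from fold and p, giving whole numbers for 100% of peaks in both lists within 0.002 in −log10 p; the low library's pileup had been scaled by 0.881. The recovery and the placing of peaks were tested on simulated data. Poisson intervals cover counting error only, since amplified reads without molecular identifiers are not independent molecules. A call was taken to need p of 0.01 or smaller, over an expected number equal in unscaled fragments. No sequences were used here, so promoters, motifs and the planned search for antioxidant response elements were not analysed. Python 3.11.15, pandas 2.3.3 and SciPy 1.17.1 were used.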

Additional observations from a re-analysis of the deposited data

How the results depend on the processing

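Of 41 alternative values, 28 stayed within 1.5 times the reported count. Among these 28 are the counts with LOC names added to the background, which could not move. That setting changes only the share of all coding genes, so those values say nothing about stability. At q under 0.05 the genes with a peak fell to 0 at gene ends, 0 inside genes and 0 within 10 kb, in either list. With the high list cut to the 5735 peaks of smallest p, 4 genes had a gene-end peak (GCLM, MSRB1, PRDX5 and SOD2), 7 a peak inside and 8 one within 10 kb, against 5.19%, 16.1% and 24.1% of all named coding genes; the 8 lie below the 11 genes of the low list, so the order of the lists within 10 kb turned. A gene-end window of 3 kb gave 19 genes in the high list (31.3% of all coding genes) and one of 0.5 kb gave 7 (13.0%). At a fold of 3 or more, 9 of the 52 genes kept a high-list peak at a gene end (all coding genes 9.25%). Inside the gene 18 did (27.8%), and within 10 kb 22 did (40.4%). In the low list 3 genes kept a gene-end peak (1.78%), 4 a peak inside (8.17%) and 7 one within 10 kb (11.7%). No test was made against these shares. Shorter lists and narrower windows hold fewer genes by construction. Overlap over at least 0.5 of the shorter peak, or summits within 1 kb, gave the same 1 overlapping pair. The share of all peaks that overlap between the lists was not computed, so this pair is not read as few or many. With the expected number as the caller scaled it, a choice made after seeing the data, 2 low-list peaks (GSTO1 and PRDX1) lay above the limit of the high library instead of 1, and 0 high-list peaks still did. No library could be left out, since each group has 1. No paired analysis was possible because replicate numbers were given in accession order and each group has 1 immunoprecipitated library.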

Other observations

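Further lists around redox defence were counted. Of 18 genes of selenoprotein synthesis and other selenoproteins, 5 had a high-list peak at a gene end and none a low-list one, against 18.4% and 3.59% of all named coding genes. SELENOT, a selenoprotein of the endoplasmic reticulum, had the highest fold at 3.69 (q 0.139), followed by SELENOO, which carried 3 gene-end peaks, at 3.22. SELENOI (3.02), SECISBP2 (2.86), which binds the selenocysteine insertion element, and SCLY (2.29) were the others. EEFSEC, the elongation factor for selenocysteine, had no gene-end peak but a high-list peak in its flank of fold 4.35 (q 0.031).

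Of 12 placed genes that produce oxidants, CYBA, a subunit of NADPH oxidase, had a high-list peak at a gene end, with a fold of 3.11, and none had a low-list one. Of 13 genes of iron handling and ferroptosis, ALOX5 had such a high-list peak, with a fold of 2.34, and none a low-list one. The same background of 18.4% and 3.59% of all named coding genes applies to both lists and to the markers that follow, each too short a list to be set apart from it. TFRC, the transferrin receptor, had a low-list peak of fold 3.64 inside the gene. The ferritin heavy chain gene FTH1 had a flanking peak in both lists, of fold 3.36 (high) and 3.46 (low). Markers of other cell types had gene-end peaks in the high list at 2 of 6 endothelial, 2 of 5 lymphocyte, 1 of 5 cholangiocyte, 1 of 4 erythroid, 0 of 6 Kupffer and myeloid and 0 of 6 stellate genes. In the low list, 1 Kupffer and myeloid marker had one and no other marker did.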
